A study of Mus musculus with 83 samples.

Results

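The SR and hnRNP genes are the 35 protein-coding genes of the colon count table whose symbol starts with Srsf and a number or with Hnrnp, or is Tra2a, Tra2b, Srrm1 or Srrm2, out of 37764 genes listed. The rule used only the symbol and the gene type, no measured value. Another 2 symbols matched but are pseudogenes, Hnrnpa1l2-ps and Hnrnpa1l2-ps2, and were left out. All 35 genes passed the filter on low counts, by which 18325 genes were tested. Bulk RNA-seq was done on tissue of the proximal colon of 83 male C57BL/6J/Ukj mice, a Black 6 substrain. Neither the labels nor the methods name a treatment, and the authors state that the samples came from a larger study of multiple variables. The age groups held 16 mice (3 months), 16 mice (9 months), 16 mice (15 months), 17 mice (24 months) and 18 mice (28 months), and each mouse gave 1 library with polyA enrichment. The libraries were made in 3 preparation batches, each with mice of every age. The ages are separate animals, not the same animals over time.

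SR proteins and hnRNPs bind pre-mRNA as it is transcribed and decide with the core spliceosome which exons are kept. SR proteins carry a domain rich in arginine and serine, mostly bind exonic enhancers and help to define exons, whereas hnRNPs package nascent RNA and often act as silencers of exons. In the intestine, where the epithelium is renewed from crypt stem cells throughout life, both families are abundant in dividing cells. Many of these genes also control their own amount by splicing in a poison exon or keeping an intron, which sends the transcript to nonsense-mediated decay or holds it in the nucleus. Gene counts sum all these transcripts and do not separate productive from unproductive ones.

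Annotated transcripts of these classes were counted, without regard to whether they are made in the colon. Of the 35 genes, 23 (65.7%) had at least 1 annotated transcript of the nonsense-mediated decay type and 26 (74.3%) at least 1 with a retained intron. Among the 15263 protein-coding genes tested, these shares were 26.5% and 55.0%. A gene with more annotated transcripts can more easily hold either type, and the shares were not matched for the number of transcripts. Hnrnpd had 4 decay transcripts among 11, and Srsf11 had 11 retained-intron transcripts among 19. Hnrnpa0 has a single annotated transcript and belonged to neither class.

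Promoter stretches are shown for the 3 members with the largest falls and the 2 with the largest rises between 3 and 28 months. Each holds the 100 bases before the RefSeq start in GRCm38.p6. Capitals mark matches to 5 promoter motifs, searched on both strands. The CCAAT box is spelled by its name. The GC box was searched as GGGCGG, the motif of ETS factors as CCGGAAG, the TATA box as TATAAA and the site for CREB-type factors, called CRE below, as TGACGT. The letters read 5′ to 3′ on the strand of the gene.
Hnrnpc, chr14:52104022-52104121, minus strand: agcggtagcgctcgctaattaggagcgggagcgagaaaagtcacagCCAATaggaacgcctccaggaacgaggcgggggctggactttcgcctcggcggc
Tra2a, chr6:49264053-49264152, minus strand: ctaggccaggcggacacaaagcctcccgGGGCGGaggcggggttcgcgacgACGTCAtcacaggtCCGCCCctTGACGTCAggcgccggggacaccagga
Srsf7, chr17:80207306-80207405, minus strand: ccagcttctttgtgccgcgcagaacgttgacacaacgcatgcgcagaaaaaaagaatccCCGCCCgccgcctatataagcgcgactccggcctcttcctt
Hnrnpd, chr5:99978939-99979038, minus strand: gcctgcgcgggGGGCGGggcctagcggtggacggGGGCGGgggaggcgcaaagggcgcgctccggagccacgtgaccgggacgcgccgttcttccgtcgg
Srsf5, chr12:80945399-80945498, plus strand: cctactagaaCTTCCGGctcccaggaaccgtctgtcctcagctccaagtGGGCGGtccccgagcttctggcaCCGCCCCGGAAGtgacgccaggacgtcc

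In these windows, Hnrnpc held a CCAAT box starting 54 bases before the start, Tra2a held GC boxes on both strands and 3 CRE matches, of which 2 overlap in one palindrome, and Srsf7 held a single GC box on the opposite strand. Hnrnpd held 2 GC boxes and Srsf5 held 2 GC boxes and 2 ETS motifs, with an ETS motif overlapping a GC box. Over the 250 bases before the start, 33 of the 35 genes had a RefSeq entry, with 46 promoters in all, and Hnrnpll and Hnrnpul2 had none in the table. A GC box occurred in 78.3% of the members' promoters, against 32.7% of all 32851 promoters and 52.7% of the promoters of tested genes. A CRE match occurred in 21.7% against 6.47% and 8.97%, an ETS motif in 19.6% against 6.91% and 11.4%, a CCAAT box in 47.8% against 33.8% and 34.5%, and a TATA box in 6.52% against 12.4% and 7.44%. These are matches of letters, and binding was not measured. The shares were not matched for level or base composition of the promoters, and a relation of the motifs to the changes with age was not tested.

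Levels of the genes were compared per length, as TPM (transcripts scaled to a fixed total per mouse), averaged over the 83 mice. Hnrnpa2b1, which binds RNA in the nucleus and takes part in RNA transport, stood highest at 380.5 ± 31.3 TPM (SD, n = 83). It was followed by Hnrnpab at 349.2 ± 27.1 TPM, Srsf5 at 320.1 ± 40.0 TPM and Srsf2 at 295.1 ± 22.6 TPM. The ranges of these genes over mice overlapped. Most of the family lay in the upper part of all tested genes, with Srsf1 (151.4 TPM) at the 94.5 percentile and Tra2b (38.9 TPM) at the 77.9 percentile.

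At the lower end stood Hnrnpll, a regulator of alternative splicing best known from lymphocytes, with 15.0 ± 1.34 TPM, and Hnrnpr with 10.4 ± 0.793 TPM. This order depends on the merged exon lengths used, 11677 bases for Hnrnpll and 22199 bases for Hnrnpr. In CPM, without length, Hnrnpr (76.1) was above Srsf4 (62.25) and Srsf9 (31.41), both of which were above it in TPM. Srsf12, a divergent SR protein, was nearly silent at 0.455 ± 0.167 TPM and had between 5 and 36 read pairs per mouse, against 16600 to 58672 for Hnrnpa2b1. The highest mouse for Srsf12 (0.826 TPM) was below the lowest mouse for Hnrnpr (8.37 TPM). All 35 genes together made up 0.466%, 0.450%, 0.444%, 0.452% and 0.454% of TPM at 3, 9, 15, 24 and 28 months.

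**Figure D1:**
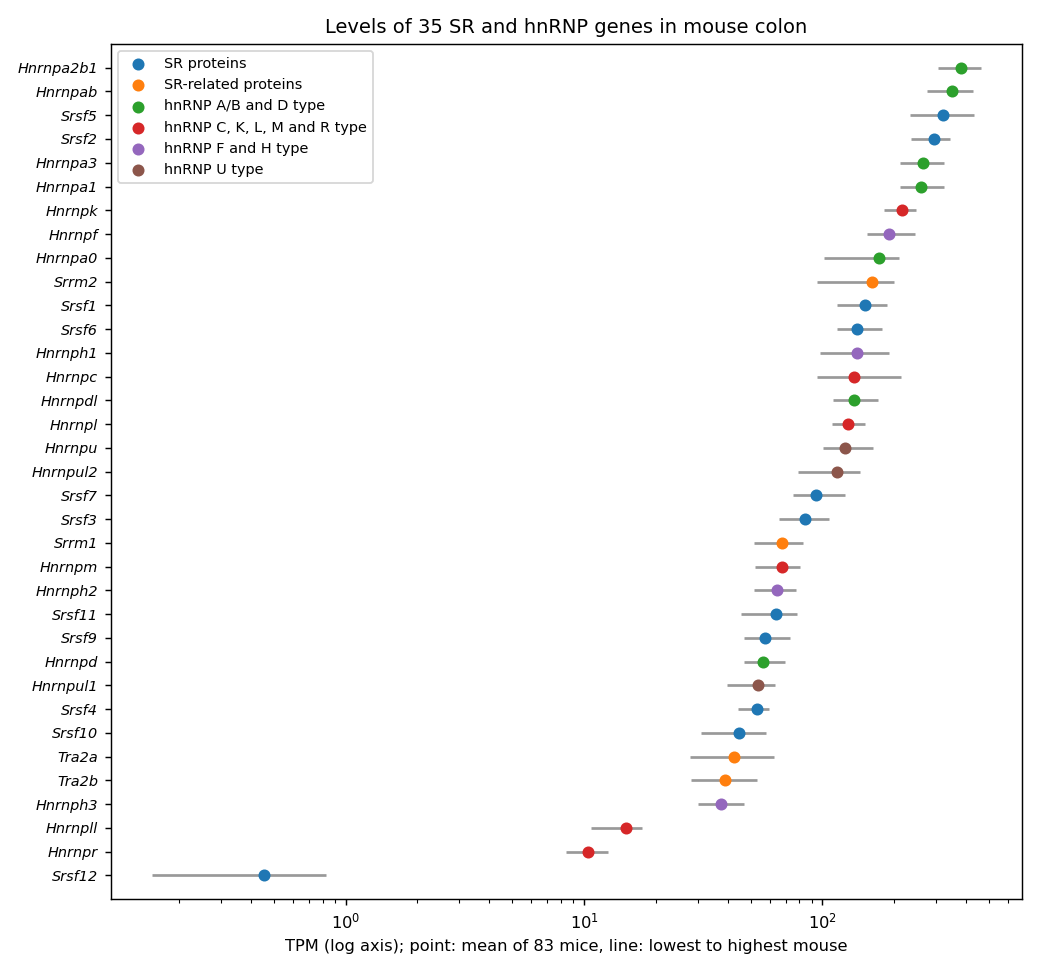
TPM of the 35 genes on a log axis, with the mean of 83 mice as a point coloured by role and the lowest and highest mouse as the ends of the line. Hnrnpa2b1 is at the top with 380.5 TPM, and Srsf12 stands alone at the bottom with 0.455 TPM.

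Levels varied little between mice of 1 age and batch. The residual SD of log2 CPM (counts scaled to the TMM-adjusted library size, with a prior count of 2) was 0.0783 for Hnrnpr and 0.0785 for Hnrnpk, against a median of 0.197 over all tested genes. Tra2a, a paralog of Tra2b that activates exons, was among the more variable members with 0.195. Only Srsf12, with its few reads, was above the median of all genes (0.509). Genes with few reads carry more counting noise, and this comparison was not matched for level.

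Over the libraries, 23026370 to 75838290 read pairs were counted per mouse, with a median of 35495123. Colon markers were abundant (Muc2 18450 CPM, Car1 6699 CPM, Cdx2 368 CPM), and the 6 small intestine markers summed to a median of 20.4 CPM at 3 months and 15.5 CPM at 28 months, with Sis, Lyz1 and Fabp6 at 9.44, 5.59 and 2.84 CPM and Lct, Apoa4 and Defa24 below the filter at 0.135, 0.0946 and 0.0433 CPM. At 28 against 3 months Lyz1 and Sis fell (log2 fold changes -0.64 and -0.63) and Fabp6 rose (0.55), and their part in the members' changes was not tested. One library stood apart, that of the 28-month mouse numbered 13 in batch 1, whose correlation with the median of its age over all tested genes was the lowest of all (0.984), and in which 13 of the 35 genes deviated by over 0.3 (log2) from the median of its age and batch. The 15-month mouse numbered 16 deviated in 10 genes. Both were kept, and values without them are given where they matter.

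The comparison of 28 with 3 months asks how the splicing factors differ between the ends of the age range. With the adjusted p-value below 0.1 that the study also used, 23 of the 35 genes (65.7%) were called, of which 18 fell and 5 rose, while 12 were not called. Over all tested genes, 49.4% were called at this pair of ages. Most members had higher levels and less spread than most tested genes, so that smaller changes could pass the threshold. The shares were not matched for this. Falls made up 51.4% of the members against 25.9% of all genes, and rises 14.3% against 23.5%. The count of rises depended on the fit, and without the 15-month mouse 16 there were 8 (22.9%, against 26.1% of all genes) beside 17 falls (48.6%, against 24.1%). Upper-quartile factors gave 7 rises (20.0%, against 26.2%) and 17 falls (48.6%, against 22.7%). A fit on only the mice of both ages gave 7 rises (20.0%, against 23.7%) and 16 falls (45.7%, against 22.4%). The median log2 fold change was -0.07 over the members and -0.01 over all tested genes. The changes were small, with a median size of 0.134 (log2) among the called members and 0.235 among all called genes. Of the 23 called genes, 19 had the same sign within each of the 3 batches.

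Hnrnpc, an hnRNP that binds uridine tracts and keeps cryptic exons out, fell the most. At 3 months its CPM ran from 168.4 to 317.7 with a median of 203.8, and at 28 months from 126.7 to 191.9 with a median of 163.7. All 18 mice at 28 months lay below the 3-month median, although the groups overlapped between 168.4 and 191.9. The log2 fold change was -0.42 (SE 0.0539, adjusted p = 1.18e-09), a level 25.2% lower. Within the batches it was -0.37, -0.27 and -0.58.

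Tra2a was next. Its CPM ran from 98.5 to 139.1 with a median of 110.6 at 3 months, and from 65.8 to 134.3 with a median of 83.1 at 28 months. Of the 18 oldest mice, 17 lay below the 3-month median, and the exception at 134.3 was mouse 13. The log2 fold change of Tra2a was -0.38 (SE 0.0662, adjusted p = 3.12e-06), and -0.43 without that mouse. The within-batch values were unequal, with -0.14, -0.38 and -0.62.

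Srsf7, an SR protein with a zinc knuckle that also links splicing to mRNA export, showed the same order of groups. Its CPM at 3 months was 109.8 to 146.3 with a median of 118.1, and at 28 months 85.7 to 127.4 with a median of 96.8. Again 17 of 18 mice lay below the 3-month median, with mouse 13 at 127.4. The log2 fold change was -0.33 (SE 0.0405, adjusted p = 3.98e-10), with -0.19, -0.31 and -0.46 in the batches.

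**Figure D2:**
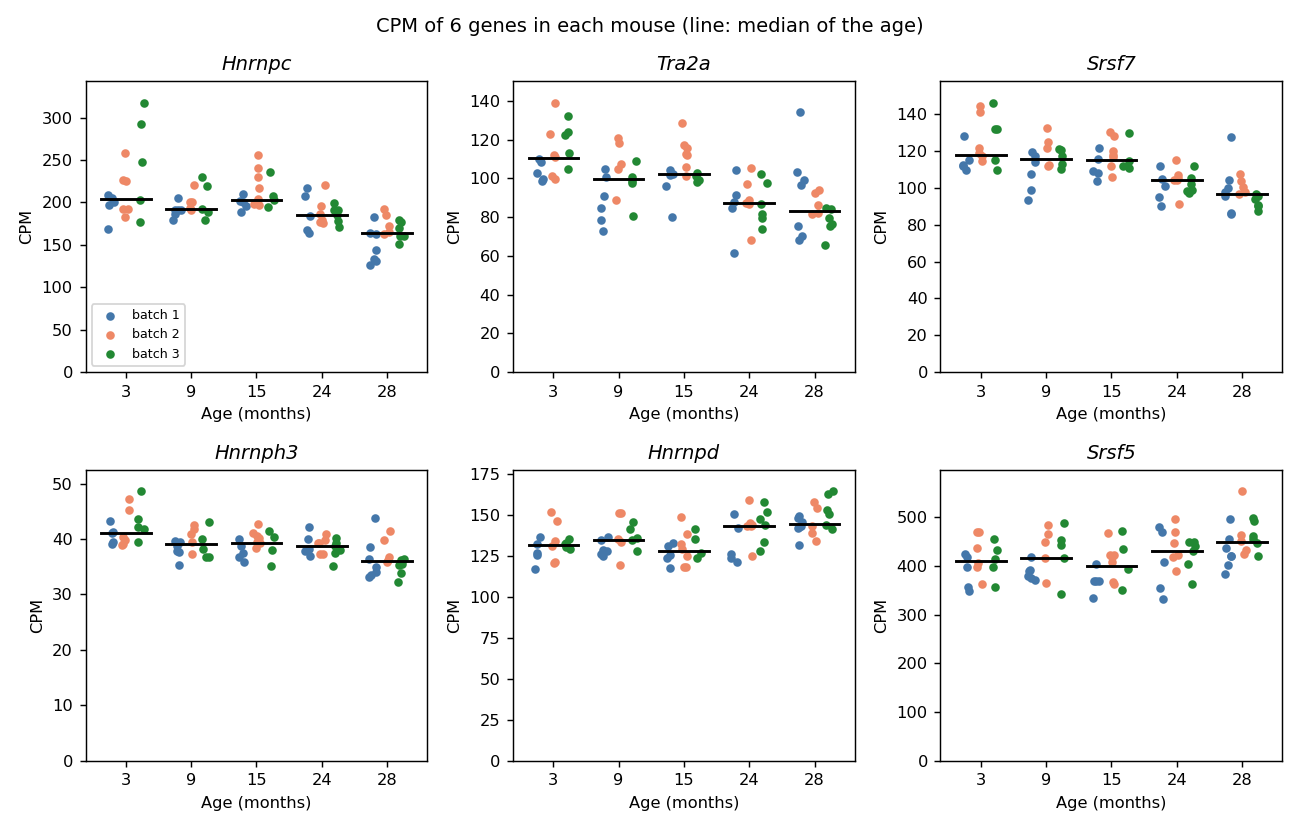
CPM of 6 genes in each of the 83 mice (y axis from 0) by age in months (x axis), with points coloured by library batch and a line at the median of each age. At 28 months all 18 mice are below the 3-month median of 203.8 CPM for Hnrnpc, and 17 of 18 are above the 3-month median of 131.4 CPM for Hnrnpd.

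Among the 11 SR proteins, 5 fell, 1 rose and 5 were not called. Besides Srsf7, these were Srsf9 (log2 fold change -0.19), Srsf3 (-0.18), Srsf10 (-0.13) and Srsf1 (-0.13). Srsf1 is the classic SR protein that promotes the use of proximal splice sites, and its CPM went from 297.4 ± 26.1 (SD, n = 16) to 269.7 ± 23.6 (SD, n = 18). Srsf3, the smallest SR protein, went from 234.6 ± 27.7 to 205.5 ± 17.3 CPM, and 16 of 18 mice at 28 months were below the 3-month median. Srsf9 went from 33.6 ± 4.05 to 29.3 ± 2.12 CPM, with all 18 mice below that median.

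Srsf5, an SR protein known to respond to growth and stress signals, was the SR protein that rose. Its CPM was 349.2 to 469.0 with a median of 410.3 at 3 months, and 384.1 to 552.9 with a median of 448.1 at 28 months. The groups overlapped widely, and 16 of 18 of the oldest mice were above the 3-month median. The log2 fold change was 0.15 (SE 0.0461, adjusted p = 0.00605), and 0.17, 0.14 and 0.17 within the batches.

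Srsf2, Srsf4, Srsf6, Srsf11 and Srsf12 were not called at this pair of ages. For Srsf2, which recognises a broad set of exonic enhancers, the mean was 287.6 ± 21.2 CPM at 3 months and 287.5 ± 15.7 CPM at 28 months, and the 95% interval of the log2 fold change ran from -0.07 to 0.08. The interval for Srsf12 was wide, from -0.28 to 0.44.

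Of the 4 SR-related genes, Tra2a and Tra2b fell, Srrm1 rose and Srrm2 was not called. Tra2b, the paralog of Tra2a, had a log2 fold change of -0.13 (adjusted p = 0.0195), with 0.03, -0.15 and -0.26 within the batches, so that its sign turned in batch 1. That batch holds mouse 13, and without this mouse the value over all batches was -0.17. Srrm1, a coactivator that bridges SR proteins and the spliceosome, rose from 161.4 ± 5.68 to 171.0 ± 7.88 CPM (log2 fold change 0.09, adjusted p = 0.0121), and 16 of 18 of the oldest mice lay above the 3-month median. Srrm2, a large scaffold of nuclear speckles, had a log2 fold change of 0.03 (adjusted p = 0.673).

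The 7 genes of the hnRNP A/B and D type went in both directions, with 3 falls, 2 rises and 2 not called. Hnrnpd (AUF1), which binds AU-rich elements and marks mRNAs for decay, had the largest rise of all 35 genes. Its CPM was 117.2 to 151.5 with a median of 131.4 at 3 months, and 131.4 to 164.3 with a median of 144.7 at 28 months. All but 1 of the 18 oldest mice were above the 3-month median. The log2 fold change was 0.17 (SE 0.0331, adjusted p = 2.9e-05), with 0.19, 0.13 and 0.21 in the batches. Its close relative Hnrnpdl rose by 0.12 on the log2 scale (adjusted p = 0.00841), but only by 0.0037 in batch 2. Hnrnpab, also related in sequence, fell by 0.14, Hnrnpa2b1 fell by 0.11 and Hnrnpa3 fell by 0.07 (adjusted p = 0.00595, 0.00488 and 0.0919). The call of Hnrnpa3 was lost in 10 of the 15 other fits over all batches, among them DESeq2 (adjusted p = 0.128) and the fit without the 15-month mouse 16 (adjusted p = 0.163). Hnrnpa1, the best studied silencer of exons in the family, had a log2 fold change of 0.05 (95% interval -0.03 to 0.12) and Hnrnpa0 of 0.03, and neither was called.

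All 4 genes of the hnRNP F and H type, which bind runs of guanines, fell. Their log2 fold changes were -0.20 for Hnrnph3, -0.13 for Hnrnph1, -0.13 for Hnrnpf and -0.08 for Hnrnph2. Hnrnph3 went from a range of 39.0 to 48.6 CPM with a median of 41.2 at 3 months to a range of 32.3 to 43.8 CPM with a median of 36.1 at 28 months (adjusted p = 1.28e-07), with 16 of 18 mice below the 3-month median. Hnrnph2 was not called with only the mice of the 2 ages (adjusted p = 0.143). In batch 1, Hnrnph1 and Hnrnph2 had values of the other sign (0.02 and 0.02). Without mouse 13, Hnrnph1 had -0.17 over all batches.

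Of the 3 hnRNP U type genes, which bind RNA and chromatin, Hnrnpu (-0.11, adjusted p = 0.0118) and Hnrnpul2 (-0.14, adjusted p = 0.000371) fell, and Hnrnpul1 (0.06, adjusted p = 0.131) was not called. Among the remaining 6 hnRNPs, Hnrnpm fell besides Hnrnpc, from 190.6 ± 14.1 to 165.5 ± 13.6 CPM (log2 fold change -0.20, adjusted p = 1.82e-06). Hnrnpll rose by 0.08 (adjusted p = 0.0663), a call that was lost without mouse 13 (adjusted p = 0.108). Hnrnpk, which binds cytosine-rich RNA, had the fitted log2 fold change nearest to 0 (-0.00058), with 462.5 ± 29.3 CPM at 3 months, 460.7 ± 23.7 CPM at 28 months and a 95% interval of the log2 fold change from -0.06 to 0.05. Hnrnpl and Hnrnpr were not called either.

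**Figure D3:**
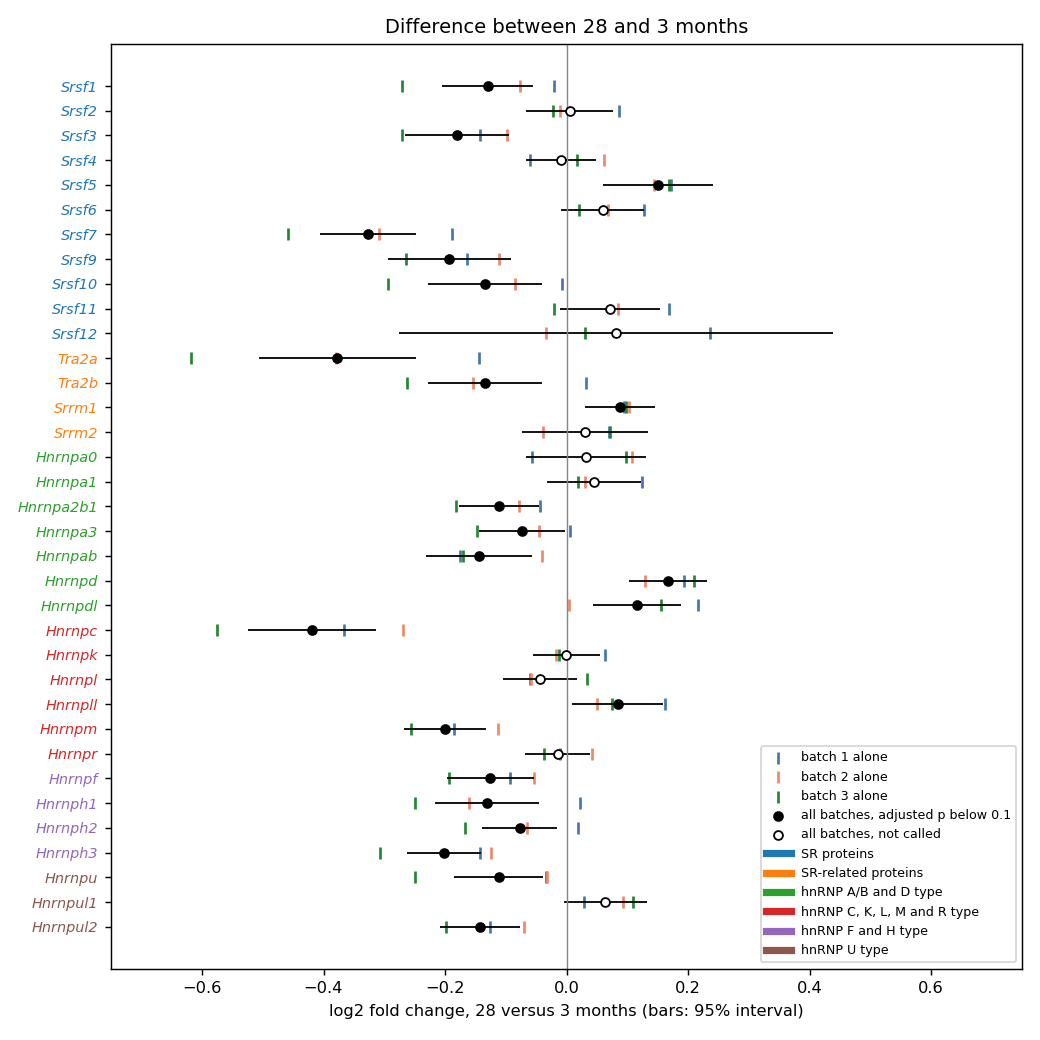
Log2 fold change of the 35 genes between 28 and 3 months, as black points with 95% intervals (filled where the adjusted p-value was below 0.1), with coloured ticks for each library batch alone and gene names coloured by role. Of the filled points 18 lie left of 0 and 5 right of it, and the ticks of batch 3 lie farthest left for Tra2a, Srsf7 and Hnrnpc.

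The batches did not carry the falls equally. With the mice of 1 batch only, 6 members were called at 28 against 3 months in batch 1 (17.1%, against 19.0% of all genes), 4 in batch 2 (11.4%, against 14.1%) and 15 in batch 3 (42.9%, against 22.9%). For calls in both directions, only in batch 3 the share of members was above that of all genes. Falls alone made up 8.57%, 11.4% and 40.0% of the members in batches 1, 2 and 3, against 8.64%, 6.29% and 12.3% of all genes. The medians over the members were -0.01, -0.04 and -0.15. A test of whether the 28 against 3 month difference varied among the batches, added after these values were seen, called none of the 35 genes and none of the 18325 (edgeR, adjusted p at least 0.999 for the members). At an unadjusted p below 0.05, 3 members (8.57%) and 3.21% of all genes passed, and these members were Tra2a, Srsf1 and Hnrnpu. For Hnrnpc, the 3-month mice of batch 3 were the highest (median 247.4 CPM, against 200.6 and 209.0 in the other batches).

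Between 24 and 3 months, 15 members (42.9%) were called, 14 lower and 1 higher, against 34.5% of all genes, of which 17.8% were lower and 16.7% higher. The 15 were among the 23 called at 28 against 3 months, where the same 3-month mice served as the reference. Tra2a already stood at a log2 fold change of -0.37 at 24 months, Srsf7 at -0.26, Hnrnpc at -0.22, Tra2b at -0.18, Srsf3 at -0.16 and Hnrnph1 at -0.16. The rise was that of Hnrnpd (0.09, adjusted p = 0.0322). Without the 15-month mouse 16, or with upper-quartile factors, 4 members rose and 14 fell. That is 11.4% higher, against 18.1% and 18.5% of all genes, and 40.0% lower, against 17.0% and 14.1%. Without mouse 16 and mouse 13 together 4 rose and 15 fell (11.4% and 42.9%, against 18.7% and 17.8% of all genes). The median over the members was -0.03, against -0.01 over all genes. With B cell and smooth muscle scores in the model, 9 members were called (25.7% against 24.0% of all genes), and with the epithelial and endothelial scores also 9 (25.7% against 21.5%).

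To place the changes in time, neighbouring ages were compared. Between 9 and 3 months 4 members (11.4%) were called, against 8.69% of all genes, of which 5.05% were lower and 3.64% higher. Tra2a fell by 0.20, and Hnrnph3 and Hnrnpul2 each by 0.10, on the log2 scale. Srsf6, an SR protein that can act against Srsf1 at some exons, rose by 0.12 (adjusted p = 0.038). Its CPM went from 212.9 ± 15.7 to 231.3 ± 14.9, with 13 of 16 mice at 9 months above the 3-month median. In fits over all batches with other settings, each of the 3 falls was lost at least once, whereas the rise of Srsf6 was not. With the score of nuclear-retained long RNAs as a covariate 11 members were called (31.4% against 15.2% of all genes), and with the epithelial and endothelial scores 8 (22.9% against 13.4%). Of the 5 nuclear-retained long RNAs, Meg3 (log2 fold change -0.84) and Kcnq1ot1 (-0.33) fell between 3 and 9 months, with a sum of 1306 to 2534 CPM at 3 months and 1385 to 2344 CPM at 9 months.

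Between 15 and 9 months no member was called by edgeR or DESeq2, against 0.431% of all genes, and 2 members had an unadjusted p below 0.05. Between 24 and 15 months, 6 members (17.1%) were called, against 13.5% of all genes (7.24% lower, 6.28% higher). Srsf7 fell by 0.17 (adjusted p = 0.00436), Tra2a by 0.25 (0.0114), Hnrnpc by 0.17 (0.038), Tra2b by 0.13 (0.0807) and Srsf3 by 0.12 (0.0679), while Hnrnpd rose by 0.12 (0.0216). All 6 kept their sign in each batch. Among the 15 other fits over all batches, the call of Srsf3 was lost in 6 and that of Tra2b in 5. For Srsf7, the range was 103.8 to 130.3 CPM with a median of 115.3 at 15 months and 90.1 to 115.3 CPM with a median of 104.2 at 24 months, so that no mouse at 24 months exceeded 115.3. With the epithelial and endothelial marker scores as covariates, only the rise of Hnrnpd was still called at this pair of ages. Without the 15-month mouse 16 the fall of Srsf3 was not called (adjusted p = 0.12). Without mouse 16 and mouse 13 together 10 members were called (28.6%, against 16.0% of all genes). Of these 8 were lower and 2 higher (22.9% and 5.71%, against 7.98% and 8.02% of all genes).

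Between 28 and 24 months, 2 members (5.71%) were called, both lower, against 11.7% of all genes (6.01% lower, 5.66% higher). Hnrnpc fell by a further 0.20 (adjusted p = 0.0107), from 163.7 to 220.7 CPM with a median of 185.0 to 126.7 to 191.9 CPM with a median of 163.7, and Hnrnph3 fell by 0.09 (adjusted p = 0.062). In the batches, Hnrnpc had -0.32, -0.10 and -0.16. Without mouse 13, 4 members were called, all lower (11.4%, against 11.8% of all genes called and 5.21% called lower). Hnrnph3 was not called at this pair of ages in several other fits. All 5 B cell markers (9.94 to 66.2 CPM with a median of 25.7 against 6.73 to 29.1 CPM with a median of 17.1), 3 of 7 markers of proliferating cells (499.6 to 694.9 CPM against 442.0 to 650.7 CPM) and 2 of 5 plasma cell markers (985.7 to 2580 CPM against 840.4 to 1982 CPM) fell at this pair too. With the smooth muscle and B cell scores in the model 5 members were called, all lower (14.3%, against 11.2% of all genes), and with the proliferating and T cell scores 2 were lower and 2 higher (11.4%, against 7.56%). No fit held a plasma cell score.

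Over the 5 ages together, 23 members were called for any difference, 65.7% against 54.9% of all genes. With the epithelial and endothelial marker scores as covariates, 13 members were called, 37.1% against 45.8%, so that the order of the shares turned. Within batch 1 alone 8.57% of the members were called against 17.8% of all genes, and within batch 3 alone 25.7% against 15.6%. In batch 2 the share of members (11.4%) was just below that of all genes. Ages that did not lie on a line were called for 3 members (8.57%), against 16.2% of all genes. These were Hnrnpc (adjusted p = 0.0153), Hnrnpd (adjusted p = 0.0435) and Srsf6 (adjusted p = 0.0807). From the youngest to the oldest group, mean CPM was 218.4, 197.6, 211.2, 187.7 and 162.2 for Hnrnpc, 131.4, 134.7, 129.2, 140.3 and 147.0 for Hnrnpd, and 212.9, 231.3, 223.7, 219.0 and 221.9 for Srsf6. Hnrnpc and Hnrnpd were thus lowest and highest at 28 months, and Srsf6 was highest at 9 months. Tra2a, with 112.6, 97.4, 104.8, 87.2 and 86.0 CPM, was not called for this departure (adjusted p = 0.205). In all, 11 members were called in none of the 6 pairs of ages nor over the 5 ages: Srsf2, Srsf4, Srsf11, Srsf12, Srrm2, Hnrnpa0, Hnrnpa1, Hnrnpk, Hnrnpl, Hnrnpr and Hnrnpul1.

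**Figure D4:**
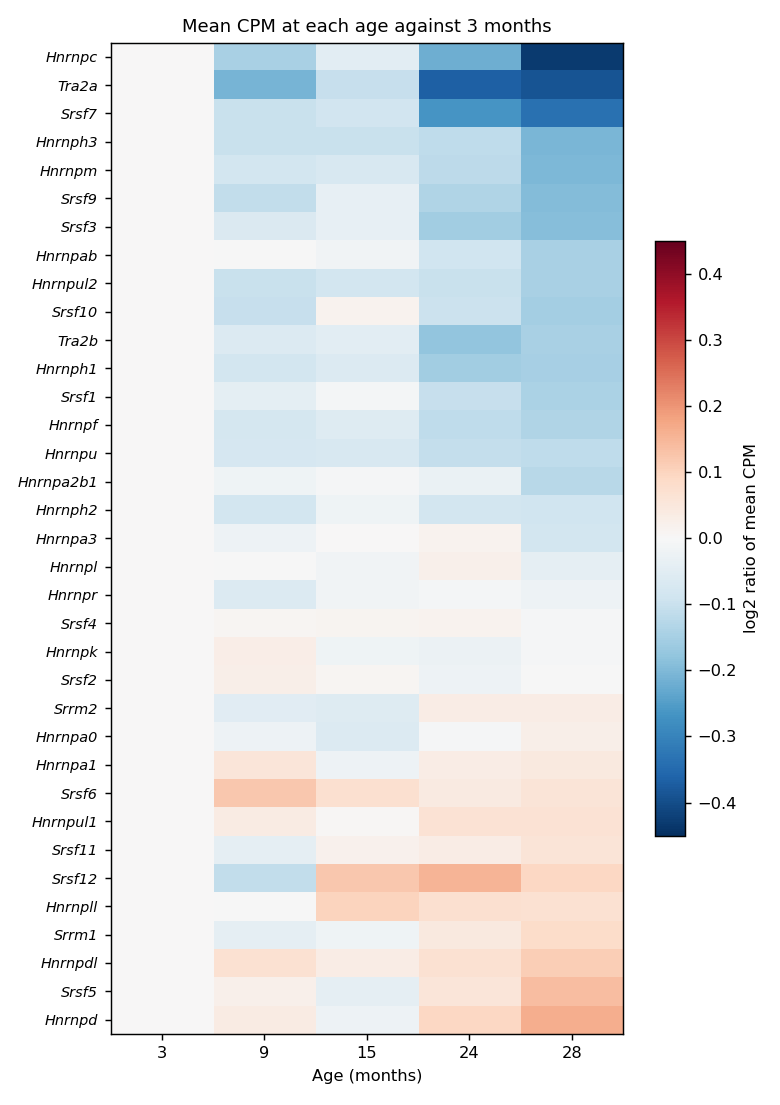
Log2 ratio of the mean CPM at each age (x axis, months) to that at 3 months for the 35 genes, ordered by their fold change between 28 and 3 months (blue lower, red higher). Tra2a, Srsf7 and Hnrnpc are darkest at 24 and 28 months, and the rise of Srsf6 is deepest at 9 months, where its mean was 231.3 CPM.

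Variation between mice of the same age was compared after age and batch were removed from log2 CPM. Of the 595 pairs of members, 425 (71.4%) had a positive correlation over the 83 mice, with a median Pearson's r of 0.212. Over the pairs of all tested genes, 49.2% were positive and the median was -0.00382, and this difference was not tested. Pairs were tested by permutation within age and batch, with 100000 resamples and adjustment over the 595 pairs. The highest pair was Srsf1 and Hnrnpa2b1, with r = 0.874 and Spearman's rho = 0.817 (permutation p = 1e-05 for each, the smallest that these resamples can give, adjusted p = 6.2e-05 and 6.61e-05). It was r = 0.83 without the 2 mice farthest from the median of Srsf1. Srsf7 and Tra2b had r = 0.831 and rho = 0.806 (0.796 without the 2 farthest mice), and Tra2a with Tra2b had r = 0.744 and rho = 0.683, with the same permutation and adjusted p-values. The lowest pair was Srsf7 and Hnrnpul1, with r = -0.628 and rho = -0.568 (permutation p = 1e-05 for each, adjusted p = 6.2e-05 and 6.61e-05), and r = -0.557 without the 2 farthest mice. All of these values come from the same libraries, and the part of tissue composition or RNA quality in them was not tested. These pairs were chosen after their values were seen.

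**Figure D5:**
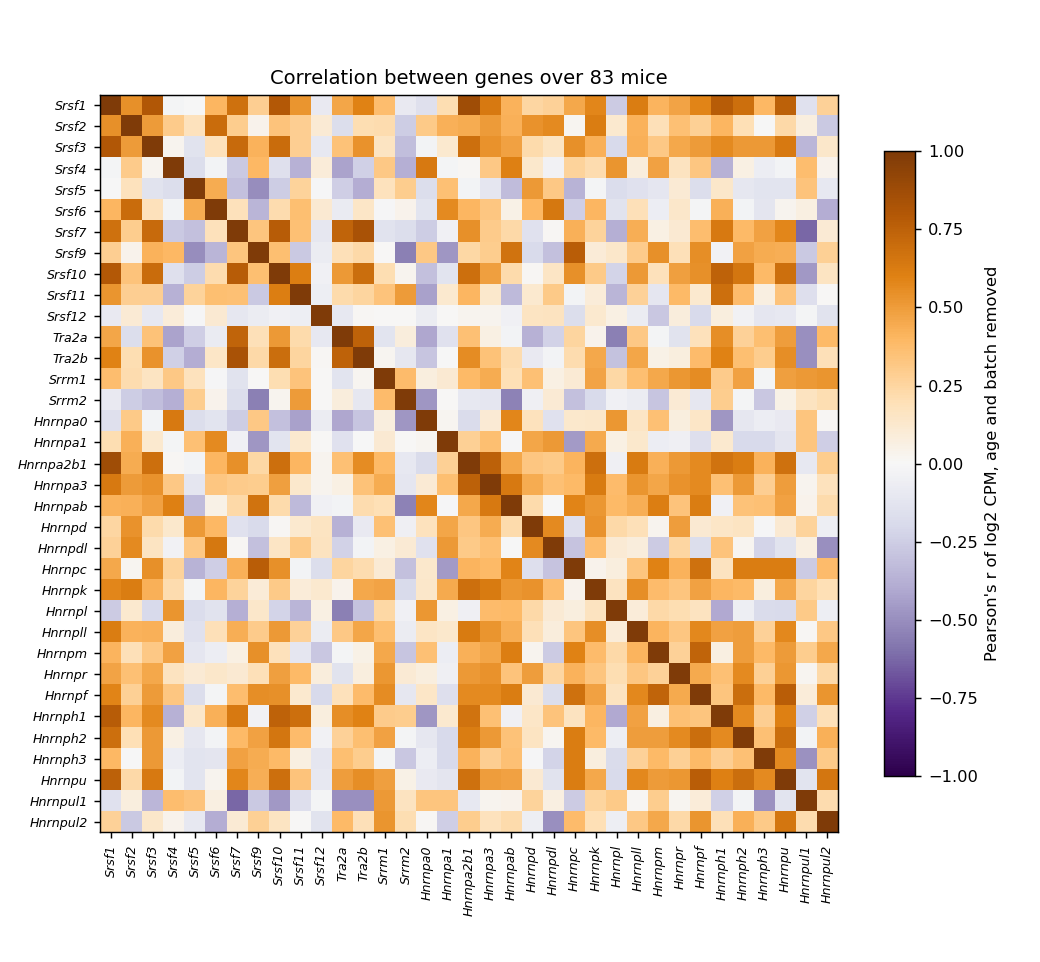
Pearson's r between the 35 genes over 83 mice, with age and batch removed from log2 CPM (both axes list the genes by role, orange positive, purple negative). Srsf1 with Hnrnpa2b1 (r = 0.874) is the strongest positive pair and Srsf7 with Hnrnpul1 (r = -0.628) the strongest negative pair.

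The partners of these genes were examined as lists of genes. SR proteins are phosphorylated by SRPK and CLK kinases, which controls their import and their release from speckles. Of 9 kinases, the SRPK and CLK genes with Dyrk1a and Prpf4b, 2 rose and 3 fell between 3 and 28 months (55.6%, against 49.4% of all genes). Their median log2 fold change was -0.05. Srpk1, the main cytoplasmic kinase, fell by 0.23 on the log2 scale (SE 0.0327, adjusted p = 1.55e-08), Prpf4b fell by 0.17 and Clk2 fell by 0.09. Srpk2 rose by 0.16 (adjusted p = 0.0199) and Clk1 rose by 0.14 (adjusted p = 0.064). Tnpo3, the importin that brings phosphorylated SR proteins into the nucleus, fell by 0.12 (adjusted p = 0.000111), and Tnpo1, which imports hnRNP A1, had a log2 fold change of 0.05 (adjusted p = 0.433).

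Of 48 core spliceosome genes, 28 fell and 1 rose at 28 against 3 months (60.4%, against 49.4% of all genes), with a median log2 fold change of -0.10. The largest falls were those of Prpf3, a U4/U6 protein (-0.29), and of Usp39, which is needed for the tri-snRNP (-0.26), and Slu7, which acts in exon ligation, was the gene that rose (0.07, adjusted p = 0.0477). The members and this list share no gene. Of 53 other splicing regulators, 17 fell and 12 rose (54.7%, against 49.4%), with a median of -0.02, among them Khdrbs3 (-0.48) and Rbm10 (-0.31) lower and Nova1 (0.48) and Rbm20 (0.34) higher. Of 15 genes of nonsense-mediated decay and the exon junction complex, 8 fell and 2 rose (66.7%, against 49.4%), with a median of -0.06. Upf1, the helicase of the decay pathway, had -0.18 and Smg6, its endonuclease, had 0.18. The 2 cold-inducible RNA-binding proteins rose more than any member did, Cirbp by 0.96 (SE 0.101, adjusted p = 1.03e-12) and Rbm3 by 0.58 (SE 0.0699, adjusted p = 1.41e-10).

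In bulk tissue, fewer cells of a type and less RNA per cell cannot be told apart, and several markers of cell types moved with the members. At 28 against 3 months, 6 of 7 markers of proliferating cells fell, and their summed level was 378.1 to 852.8 CPM with a median of 602.4 at 3 months and 442.0 to 650.7 CPM with a median of 499.0 at 28 months. At 24 against 3 months, where 14 members fell, none of these 7 markers was called, and their median log2 fold change was 0.003. At that pair of ages 4 of 5 endothelial, 5 of 6 macrophage and 3 of 6 smooth muscle markers rose, the last with a sum of 732 to 4446 CPM at 3 months and 2802 to 4666 CPM at 24 months. Of the 5 plasma cell markers 2 rose and 1 fell there. At 24 against 15 months, where 5 members fell, all 5 endothelial markers (71.5 to 126.3 CPM with a median of 106.2 against 103.8 to 132.4 CPM with a median of 124.5) and 4 of 6 macrophage markers rose, and none of the colon epithelium markers was called. Of the colon epithelium markers 4 of 10 fell at 28 against 3 months, among them Muc2, and 4 at 24 against 3 months, where Muc2 was not called (log2 fold change -0.13, adjusted p = 0.105), and their sum had medians of 35480, 32390 and 30710 CPM at 3, 24 and 28 months (ranges 29370 to 38030, 29680 to 35100 and 28590 to 37300 CPM). All 5 endothelial markers rose at 28 against 3 months (93.4 to 112.8 CPM with a median of 106.8 against 99.9 to 138.7 CPM with a median of 125.9), and 5 of 6 macrophage markers did so too (131.5 to 204.8 CPM against 125.5 to 306.4 CPM). Of the B cell markers 4 of 5 fell, from a sum of 7.44 to 85.8 CPM to a sum of 6.73 to 29.1 CPM. No list was at 0 in any age.

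With marker scores as covariates, the calls at 28 against 3 months changed in number. The proliferating cell and T cell scores left 25 members called (17 lower, 8 higher), 71.4% against 49.9% of all genes. The smooth muscle and B cell scores left 22 (16 lower, 6 higher), 62.9% against 48.2%. The epithelial and endothelial scores, added after the data were seen, left 15 (9 lower, 6 higher), of which 14 were among the 23. That is 42.9% of the members against 43.6% of all genes, so that the share of members was not above that of all genes in this fit. The 9 lost were Srsf1, Srsf10, Tra2b, Hnrnpa2b1, Hnrnpa3, Hnrnpf, Hnrnph1, Hnrnph2 and Hnrnpu, which kept their sign with adjusted p-values of 0.113 to 0.321. Their log2 fold changes were -0.13 to -0.07 without these scores and -0.10 to -0.05 with them. The median over all 35 members, -0.07 without scores, was -0.02 with the proliferating and T cell scores, -0.07 with the smooth muscle and B cell scores and -0.06 with the epithelial and endothelial scores. Hnrnpc (-0.39), Tra2a (-0.32), Srsf7 (-0.29) and Hnrnpd (0.18) were still called with the latter scores.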

How the data were processed

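Total RNA of the colon was sequenced as stranded polyA libraries in paired-end mode with reads of 100 bases. The authors trimmed reads with cutadapt 2.8, aligned them to GRCm38.p6 with HISAT2 2.1.0 and counted them per gene with featureCounts (Subread 2.0.1). The deposited values are whole-number counts per gene and mouse, not normalized and not pooled. Every mouse had 1 column, and ages and batches were taken from the labels. The rule on symbols uses no measured value, but the family and the lists were taken up with earlier results of these data known.

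The counts entered edgeR 4.0.16 (R 4.3.3), with filterByExpr by age, TMM factors and 1 quasi-likelihood model of age and library batch over 83 mice. P-values were adjusted over all 18325 tested genes by the Benjamini-Hochberg method (threshold 0.1), and tests are two-sided. The departure from a line used the terms of age above the linear one. DESeq2 1.42.0 served as an alternative. TPM used merged exon lengths of a GRCm38 annotation (37652 genes found), which understate genes with long retained introns. Some members share bases with other annotated genes on the same strand (Hnrnpa3, Srsf11, Srsf4, Hnrnpk, Srrm2, Hnrnpm and Hnrnpul2), so their counts are less certain, and Hnrnpa1 has many processed pseudogene copies. Named members are those called, with at most 12 rises and 12 falls at 28 and 24 against 3 months and 6 of each at neighbouring ages, beside levels of any member. The falls at 28 against 3 months beyond the 12 largest were named after their values were seen. From the other lists at most 4 called genes were named, or all of a list of under 10. Python 3.11.15 was used for summaries and plots. Mice of the same age differed more than counting noise in all 649 pairs, with chi-square per degree of freedom of at least 11.8. No source names litters or cages, and each mouse counted as 1 replicate. The bisulfite data were not analysed here.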

Additional observations from a re-analysis of the deposited data

How the results depend on the processing

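At 28 against 3 months, the count of 23 called members was 21 to 25 in all other fits over the 3 batches but one, that with the epithelial and endothelial scores as covariates (15). The mice of batch 1, 2 or 3 alone gave 6, 4 and 15. In batch 1 alone the log2 fold changes of Tra2b, Hnrnph1, Hnrnph2 and Hnrnpa3 turned to 0.0315, 0.0228, 0.0194 and 0.00506, and the cause was not tested. At 24 against 3 months the 15 calls became 9 with either the smooth muscle and B cell or the epithelial and endothelial scores, and 0, 3 and 5 in the batches. At 9 against 3 months the 4 calls became 1 with a threshold of 0.05, with upper-quartile factors or without a filter, 2 with the smooth muscle and B cell scores or with only the mice of the 2 ages, 8 with the epithelial and endothelial scores, 11 with the score of nuclear-retained long RNAs, and 0 in each batch. At 24 against 15 months the 6 calls became 1 with the epithelial and endothelial scores, 10 without the mice 13 and 16, and 0, 1 and 0 in the batches. At 28 against 24 months the 2 calls became 1 with a threshold of 0.05, with DESeq2 size factors, without a filter, with at least 10 counts in every mouse or with only the 2 ages, 5, 4 and 5 with the smooth muscle and B cell, the proliferating and T cell and the nuclear RNA scores, 5 without both mice, 3 to 4 without either of them, and 0 in batches 2 and 3. Over the 5 ages the 23 calls became 13 with the epithelial and endothelial scores and 3, 4 and 9 in the batches, and the 3 departures from a line became 6 with these scores, 6 without both mice and 0 in each batch. The causes were not tested, and a batch alone holds fewer mice.

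Of the 23 changes called at 28 against 3 months, 13 stayed past the threshold in all 15 other fits over the batches. Same-numbered mice of different ages did not deviate together (median correlation 0.0103 over 161 pairs, against -0.00263 for other numbers), and with the replicate number as a block the counts were 23, 15, 3, 0, 6 and 2 for the 6 pairs of ages (28 and 24 against 3, 9 against 3, and the 3 later steps). The median over members of the log2 ratio of mean levels, 28 to 3 months, was -0.06 in TPM and -0.08 in CPM. Depth limits only Srsf12, whose few reads cannot show changes of the size seen in the other genes.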
